A study of Mus musculus with 2 samples.

Results

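The strongest distal DNase I hypersensitive sites shared by both libraries were 932 peaks out of 23529 shared distal peaks on chromosomes 1 to 19, and out of 60053 peaks of replicate 1 on those chromosomes. The series measured DNase I accessibility in the cerebellum of male B6CASTF1/J mice aged 4 days. These mice are F1 hybrids that inherit one genome from a C57BL/6 laboratory parent and one from the wild-derived CAST strain. There are 2 libraries, labelled biological replicates 1 and 2, which form 1 group with no other condition. Each label names 3 males, so each library appears to pool animals. The libraries come from different biosamples with the same donor record, so how far the spread between them is biological is not known. Replicate 1 was sequenced on Illumina NovaSeq 6000 and HiSeq 4000 instruments, and the labels name no instrument for replicate 2.

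The sites were selected on the authors' peak signal itself: a peak of replicate 1 had to reach 3 in the signal column and overlap, by at least 1 bp, a peak of replicate 2 that also reached 3. It also had to lie over 1000 bp from every start of a protein-coding transcript in GENCODE M21 on GRCm38 (mm10). The signal is the authors' depth-normalised value, the depth in reads is unknown, and the values of the sites are therefore a description and support nothing by themselves. With 1 group there was no test to run. Shares below therefore stand beside the same share over the other 22597 shared distal peaks, where that was computed. Exact 95% binomial intervals, where given, cover counting error only. Of the 23529 shared distal peaks, 3.96% reached 3 in both libraries, 4.2% reached it in replicate 1 and 17.2% in replicate 2, so replicate 1 set most of the choice. The same threshold was reached in both libraries by 4439 peaks in all, of which 3507 (79%) lay within 1000 bp of a coding start and were left out here.

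DNase I cuts DNA that is not wrapped tightly in nucleosomes, and a protein bound inside such an open stretch protects a short footprint from cutting. Distal sites of this kind include enhancers, promoters of RNAs that code for no protein, and sites of CTCF, a zinc finger protein that holds chromatin loops and insulates neighbouring domains in nearly every cell type. Transfer RNA genes are a further kind of open site: RNA polymerase III reads them from promoter elements inside the gene, the A box and the B box. Sequences that the genome holds in many copies can also carry a high apparent signal, because reads from every copy, including copies absent from the assembly, may be placed on a few loci.

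Sequences of the main kinds of site are printed here because the kinds are told apart by sequence and annotation, not by signal. The CTCF consensus searched was CCA, 2 bases of any kind, AG, 2 more of any kind, and GGC, on either strand. In the 5 single-copy sites below, the capitals mark the match, each of which lay in a footprint of both libraries, and each site is read on the strand of its match. They are the 2 strongest such intergenic sites, the 2 strongest in introns and the strongest at a noncoding start, among sites that cover no exon of a coding gene.
Near Chd2, intergenic, chr7:73618421-73618640, minus strand: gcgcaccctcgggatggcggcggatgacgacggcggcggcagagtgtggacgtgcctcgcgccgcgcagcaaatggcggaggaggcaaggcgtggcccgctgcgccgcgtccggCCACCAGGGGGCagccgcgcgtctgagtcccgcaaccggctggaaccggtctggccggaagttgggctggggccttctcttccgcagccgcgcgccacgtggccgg
Near Nfix, intergenic, chr8:84810961-84811160, minus strand: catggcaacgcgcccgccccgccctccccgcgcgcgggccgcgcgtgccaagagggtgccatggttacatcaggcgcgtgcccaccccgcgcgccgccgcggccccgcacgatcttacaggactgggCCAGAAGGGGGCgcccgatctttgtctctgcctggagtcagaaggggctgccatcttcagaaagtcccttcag
In an intron of Camta1, chr4:151141641-151141840, minus strand: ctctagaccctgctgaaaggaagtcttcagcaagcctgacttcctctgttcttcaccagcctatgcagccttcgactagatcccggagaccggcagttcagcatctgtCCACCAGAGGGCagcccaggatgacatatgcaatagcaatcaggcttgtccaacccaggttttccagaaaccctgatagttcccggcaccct
In an intron of Nuak1, chr10:84438141-84438300, minus strand: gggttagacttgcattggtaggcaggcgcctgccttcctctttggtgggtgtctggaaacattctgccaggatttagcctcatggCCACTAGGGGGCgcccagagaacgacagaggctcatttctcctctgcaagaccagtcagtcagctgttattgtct
At the start of Snhg7os, chr2:26640241-26640380, minus strand: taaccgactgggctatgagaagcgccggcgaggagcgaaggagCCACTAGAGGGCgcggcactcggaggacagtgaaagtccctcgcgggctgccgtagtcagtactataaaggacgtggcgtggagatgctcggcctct

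The next lines show the 3 strongest sites with a transfer RNA gene and a B box (GTTCNANNC, in capitals), read on the strand of the tRNA gene. After them stand the 2 sites with the highest CpG content among CpG-rich sites of at most 300 bp with no annotated start and no CTCF match, with every CG in capitals.
tRNA gene n-TTcgt3, threonine, chr11:79704501-79704720, plus strand: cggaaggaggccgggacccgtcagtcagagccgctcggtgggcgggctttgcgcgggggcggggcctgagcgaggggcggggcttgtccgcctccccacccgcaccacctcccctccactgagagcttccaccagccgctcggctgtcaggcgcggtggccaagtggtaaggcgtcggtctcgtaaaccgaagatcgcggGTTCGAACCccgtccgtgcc
tRNA gene n-TScga3, serine, chr11:69110841-69111020, plus strand: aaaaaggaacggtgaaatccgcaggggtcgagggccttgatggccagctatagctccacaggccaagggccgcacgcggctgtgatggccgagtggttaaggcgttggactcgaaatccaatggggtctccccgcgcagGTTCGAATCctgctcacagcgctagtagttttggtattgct
tRNA gene n-TLtaa3, leucine, chr10:12922561-12922780, minus strand: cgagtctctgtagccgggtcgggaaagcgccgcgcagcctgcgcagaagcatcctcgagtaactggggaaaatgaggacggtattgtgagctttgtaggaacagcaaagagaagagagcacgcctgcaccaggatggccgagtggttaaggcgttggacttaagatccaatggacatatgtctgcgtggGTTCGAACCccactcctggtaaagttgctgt
In an intron of C87436, chr6:86472201-86472480, plus strand: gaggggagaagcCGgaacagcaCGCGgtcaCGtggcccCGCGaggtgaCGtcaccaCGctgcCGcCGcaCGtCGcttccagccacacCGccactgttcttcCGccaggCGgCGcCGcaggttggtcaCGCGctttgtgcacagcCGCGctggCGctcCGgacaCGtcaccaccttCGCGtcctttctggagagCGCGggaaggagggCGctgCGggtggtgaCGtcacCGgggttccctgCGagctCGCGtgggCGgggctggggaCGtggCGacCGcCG
Upstream of Ptma, intergenic, chr1:86487461-86487760, plus strand: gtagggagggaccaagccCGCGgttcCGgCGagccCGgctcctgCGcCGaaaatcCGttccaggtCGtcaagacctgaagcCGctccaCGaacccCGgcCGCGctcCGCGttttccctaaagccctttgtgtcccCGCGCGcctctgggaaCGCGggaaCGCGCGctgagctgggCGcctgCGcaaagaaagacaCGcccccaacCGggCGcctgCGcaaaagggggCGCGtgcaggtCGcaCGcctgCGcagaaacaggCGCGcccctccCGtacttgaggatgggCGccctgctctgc

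The last lines show sequence that occurs more than once in the genome. The first pair lies on chromosome 8 and its copies, 97.4% identical over 156 bp, share a CTCF match, in capitals. The second pair comes from the largest family of linked copies, and its capitals mark the 131 bp that align between them at 99.2% identity.
First copy on chromosome 8, chr8:20122145-20122300, plus strand: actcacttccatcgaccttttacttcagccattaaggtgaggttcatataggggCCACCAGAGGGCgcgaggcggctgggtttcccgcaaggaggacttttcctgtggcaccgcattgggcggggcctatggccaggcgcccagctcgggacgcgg
Second copy on chromosome 8, chr8:20424761-20424920, minus strand: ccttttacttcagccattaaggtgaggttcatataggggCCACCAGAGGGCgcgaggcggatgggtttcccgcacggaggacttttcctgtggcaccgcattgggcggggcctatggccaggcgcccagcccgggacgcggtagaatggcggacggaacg
Near Igf2bp3, intergenic, chr6:49236441-49236620, plus strand: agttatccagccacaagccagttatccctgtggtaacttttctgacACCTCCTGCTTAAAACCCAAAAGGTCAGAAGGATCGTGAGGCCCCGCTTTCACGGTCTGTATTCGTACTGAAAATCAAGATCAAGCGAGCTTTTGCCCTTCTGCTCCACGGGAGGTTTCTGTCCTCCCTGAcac
In an intron of Gphn, chr12:78350861-78351080, minus strand: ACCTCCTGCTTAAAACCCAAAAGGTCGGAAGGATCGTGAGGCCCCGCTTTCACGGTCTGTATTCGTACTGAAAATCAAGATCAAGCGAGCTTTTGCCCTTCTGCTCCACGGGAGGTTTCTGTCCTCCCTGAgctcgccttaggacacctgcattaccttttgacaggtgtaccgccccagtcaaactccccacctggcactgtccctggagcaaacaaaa

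The sites ranged from 3.01 to 54.4 in replicate 1, with a median of 3.61, and from 3.01 to 40.2 in replicate 2, with a median of 5.63. The other shared distal peaks had medians of 0.922 in replicate 1 and 1.41 in replicate 2. Most sites lay close to the threshold: the lower of both values was under 4 in 623 sites (66.8%), was at least 7 in 24 and was at least 10 in 11. The peaks were short, with a median width of 180 bp against 160 bp in the other shared distal peaks. The 932 sites rested on 930 peaks of replicate 2, since 4 sites shared their replicate 2 peak with a neighbour.

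Just inside the threshold lay a site in an intron of 3110082I17Rik at 3.01 in replicate 1 and 4.37 in replicate 2, one in an intron of Clec18a at 3.01 and 4.49 over the glycine tRNA gene n-TGgcc2, and one 25667 bp from Mrpl42 at 3.01 and 4.02. Just outside it, at 3.00 in replicate 1 each, lay sites near Gm10775, near Nufip1 and near Basp1, with 11.6, 7.95 and 6.14 in replicate 2. The excluded sites thus had the higher values in replicate 2. The values run in steps of 0.00645 in replicate 1 and 0.00665 in replicate 2. If 1 step stands for 1 counted cut, a value of 3 rests on 465 and 451 cuts, with exact 95% Poisson intervals of 2.73 to 3.29 in both, which cover counting error only. In replicate 1 the sites just inside and just outside the threshold therefore lay within counting error of each other.

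Values were higher in replicate 2 at 859 of the 932 sites (92.2%), against 74.5% of the other shared distal peaks. The median log2 difference, replicate 2 minus replicate 1, was 0.54 at the sites (SD over sites 0.47) and 0.48 at the other shared distal peaks (SD 0.73). Both values were used to choose the sites. Of 989 shared distal peaks at 3 or more in replicate 1, the rule kept 932. The rest, all higher in replicate 1, count among the other peaks, so nothing is read from these contrasts. Among the 15 strongest sites, 5 were higher in replicate 1.

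**Figure D1:**
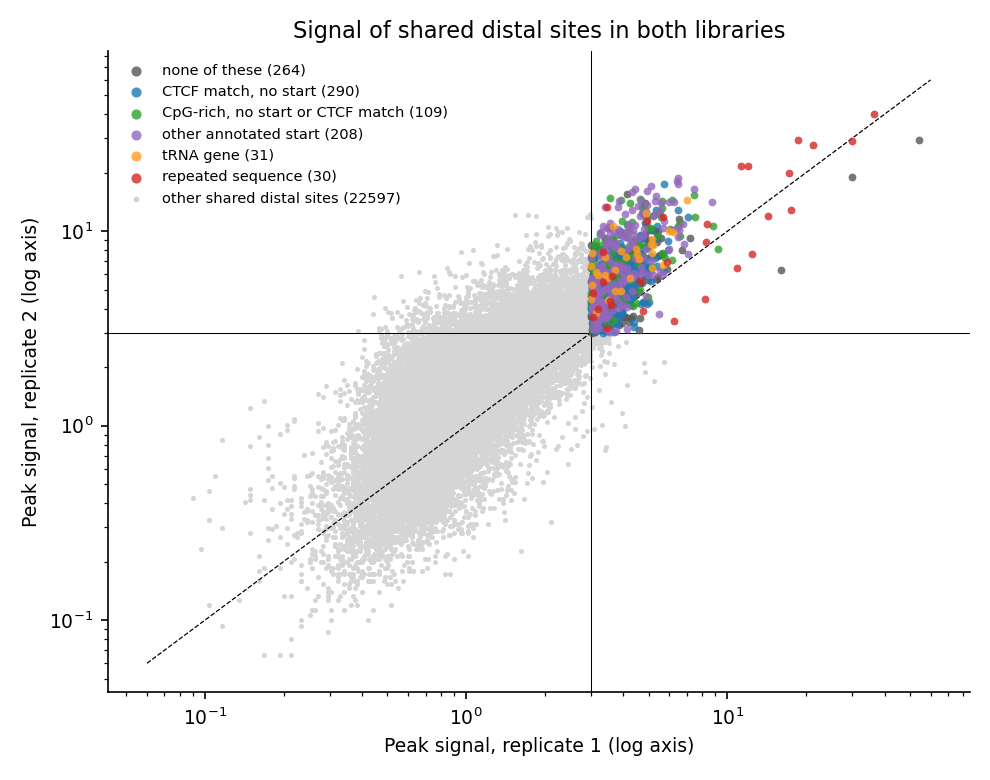
Peak signal of every shared distal peak in replicate 1 (x axis) and replicate 2 (y axis), both on log axes. Coloured points are the 932 sites by class and grey points the other 22597 peaks, solid lines stand at 3 and the dashed line marks equal values; the highest sites are mostly of repeated sequence.

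Each site was placed in the first class it met, in the order repeated sequence, tRNA gene, other annotated start, CTCF match, CpG-rich, none of these. A site counted as repeated sequence when BLAST placed it at 2 or more loci with at least 90% identity over 80% of its length, or when at least 50% of its 50-base words occurred more than once in the assembly. This gave 30 sites of repeated sequence (3.22%), 31 at a tRNA gene (3.33%), 208 at another annotated start (22.3%), 290 with a CTCF match and no start (31.1%), 109 that were CpG-rich with neither (11.7%) and 264 with none of these (28.3%). Near-copies were searched for the sites only, so these class shares have no counterpart over the other peaks. The median log2 difference between the libraries was 0.25 in repeated sequence, 0.76 at tRNA genes, 0.73 at other starts, 0.49 at CTCF matches, 0.82 at CpG-rich sites and 0.45 in the last class. Replicate 1 was higher at 9 of the 30 sites of repeated sequence and at 0 of the 31 tRNA sites.

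**Figure D2:**
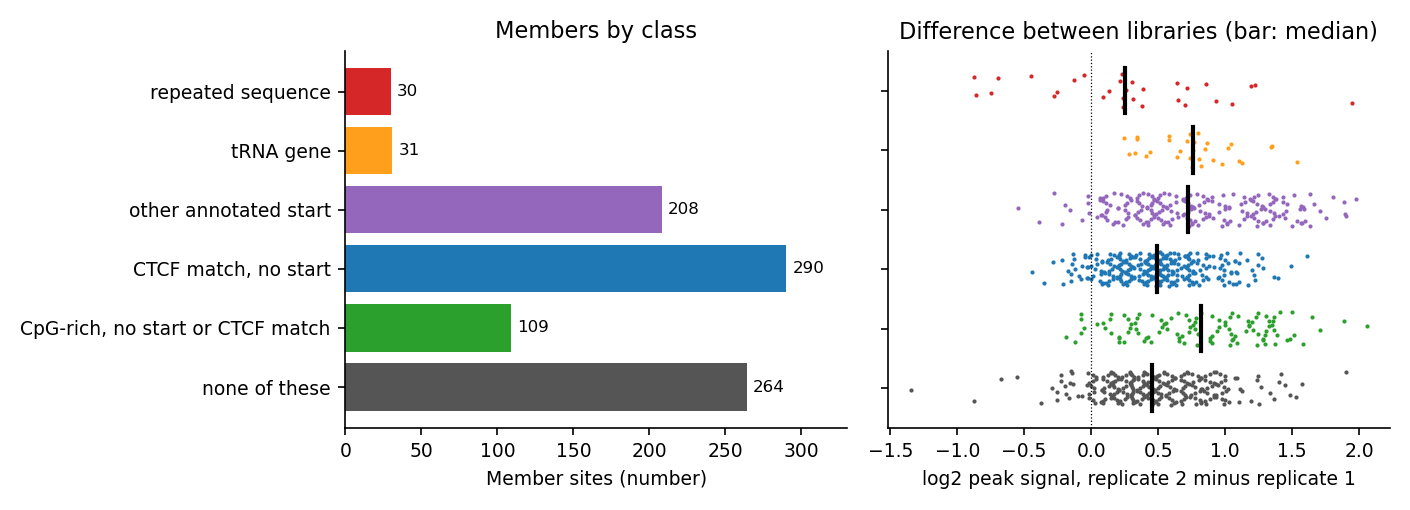
Left, number of the 932 sites in each class. Right, log2 difference of peak signal, replicate 2 minus replicate 1, 1 point per site with the class median as a black bar; the medians run from 0.25 in repeated sequence to 0.82 at CpG-rich sites.

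The kinds of site were spread unevenly over the range of signal. The share with a CTCF match was 6.88% (interval 6.04 to 7.8) where the lower value was under 0.5, 34.5% (33.4 to 35.7) between 1 and 2, and 42.1% (40.1 to 44.2) between 2 and 3. Inside the selected range it was 42.2% (38.3 to 46.2) between 3 and 4, 34.3% (27.8 to 41.3) between 4 and 5, 27.4% (18.2 to 38.2) between 5 and 7, and 12.5% (2.66 to 32.4) at 7 or more, where only 24 sites remain. CpG-rich sites took the opposite course over the selected range, with 23.4% between 3 and 4, 39.8% between 4 and 5, 53.6% between 5 and 7 and 54.2% at 7 or more, against 6.43% under 0.5. Peaks with mostly repeated 50-base words made up 1.78% under 0.5, 0.437% between 0.5 and 1, 0 of 623 between 3 and 4, which allows a share of up to 0.59%, 0.995% between 4 and 5, 1.19% between 5 and 7, and 7 of the 24 at 7 or more (29.2%, interval 12.6 to 51.1). The median width was 180 bp in every class of signal from 1 to 4, and 200 bp between 4 and 7.

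**Figure D3:**
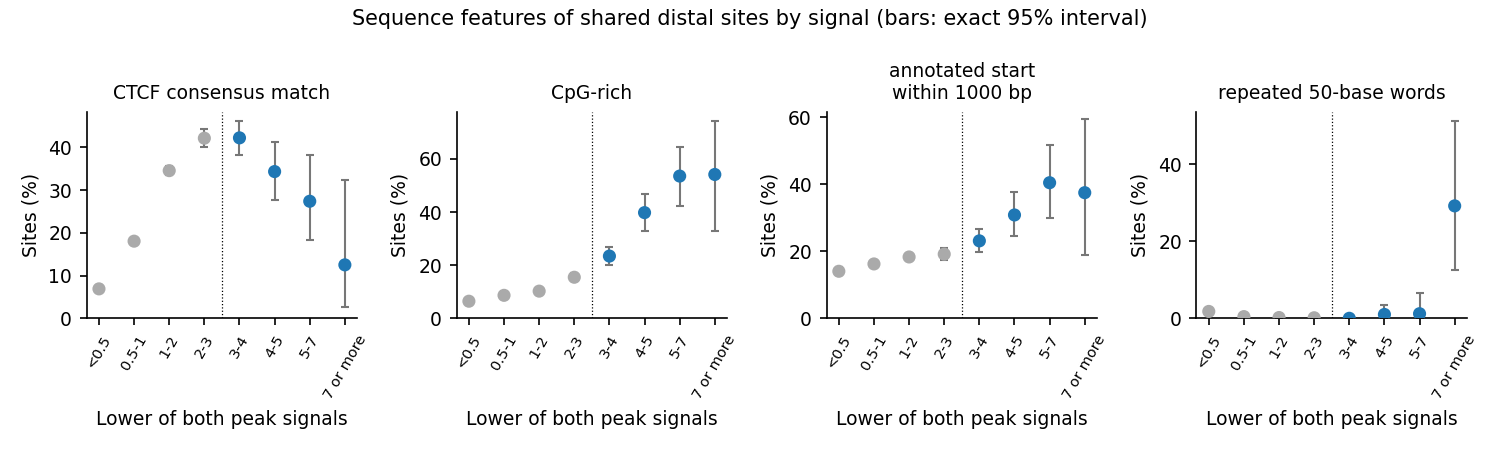
Share of shared distal peaks with a CTCF consensus match, with CpG-rich sequence, with an annotated start within 1000 bp and with mostly repeated 50-base words (y axes, percent), by the lower of both signals (x axes). Bars are exact 95% intervals, blue points are the selected range from 3 up and grey points lie below it; the CTCF share falls above 4, the CpG-rich and start shares are higher there, and the repeated-word share is highest at 7 or more.

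CTCF matches were the most frequent motif over all 932 sites, of which 623 lie between 3 and 4; above 4, CpG-rich sequence was more frequent. They stood in 358 of the 932 sites (38.4%, interval 35.3 to 41.6), against 5394 of the 22597 other shared distal peaks (23.9%, 23.3 to 24.4). At a threshold of 5 there was no such gap, with 24.1% of 108 sites against 24.4% of the peaks below it. Windows of the same length 2000 bp to either side of the sites held the consensus in 2.36%, and the same consensus with its letters reversed stood in 0.429% of the sites. Of the 358 matched sites, 344 (96.1%) had a match at least 50% covered by footprints of both libraries, against 83.8% of the matched other peaks. Footprints come from the same cuts as the signal that chose the sites. In replicate 1, 2315 of the 22597 other peaks held no footprint at all, against 4 of the 932 sites. Nothing is therefore read from this difference. The match centres lay a median of 9 bp from the middle of the peak, against 9.5 bp in the other peaks, and 196 matches read forward and 176 reverse.

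Footprints lay unevenly around these matches. Averaged over the bases of the match, 94.6% of the matched sites had the base in a footprint of replicate 1 and 97% in one of replicate 2, against 83.6% and 85.4% of the other matched peaks. Before the match, on its own strand, the share had a second, lower peak of 47.8% of the sites at 19 bp from the match centre in replicate 1 and 58.7% at 20 bp in replicate 2, against 28.7% and 39.1% of the other matched peaks at the same distances. After the match no second peak stood out, and the core footprint reached further, with 86% and 92.5% of the sites covered at 14 bp. At 30 bp or further away, footprints covered 2.39% and 4.14% of the sites on average. Because footprints and signal come from the same cuts, nothing is read from the higher shares than in the other matched peaks. CTCF uses many zinc fingers, some of which are known to contact a second motif upstream of the core; which protein left these footprints was not measured.

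**Figure D4:**
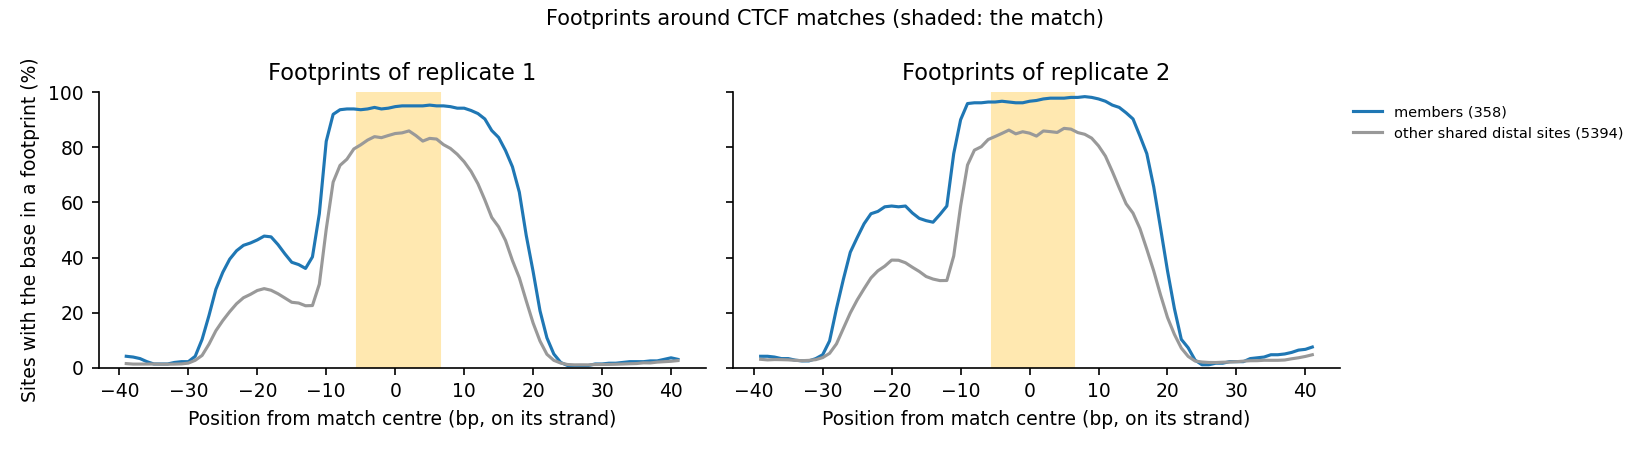
Share of sites (y axis, percent) whose base lies in a deposited footprint, by position from the centre of the CTCF match on the strand of the match (x axis, bp), for replicate 1 (left) and replicate 2 (right). Blue is the 358 matched sites and grey the 5394 matched other peaks; the core is covered in over 90% of the sites and a second, lower peak stands 19 to 20 bp before the match centre.

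The letters at the free positions were far from even. Among the 372 matches in the sites, the first free position held C in 57.5% and G in 40.3%, the second C in 59.7%, the third G in 64% and A in 34.1%, and the fourth G in 58.3% and T in 35.5%. In the 5473 matches of the other peaks the second free position held C in 47.6% and the third G in 50.8%, so that both letters were more frequent in the selected sites. The most frequent complete match was CCACCAGGGGGC, with 43 of 372 matches (11.6%) in the sites against 399 of 5473 (7.29%) in the other peaks, where the most frequent was CCAGCAGAGGGC (8.04%). The matches used 53 different words in the sites.

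CTCF matches were less common in CpG-rich sequence than outside it. They stood in 43 of 284 CpG-rich sites (15.1%) and in 315 of the other 648 (48.6%), against 6.96% and 25.6% in the other shared distal peaks. By distance to the nearest coding start, the match share was 28.7% at 1000 to 5000 bp, 38.9% at 5000 to 20000 bp, 44.7% at 20000 to 100000 bp and 30.7% beyond, and in each of these classes it was higher than in the other peaks (22.1%, 29.5%, 24.3% and 16.4%).

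Among the CTCF sites, the strongest with the match in a footprint of both libraries was, outside genes and away from annotated starts, the one near Chd2 (7.05 in replicate 1 and 11.8 in replicate 2), 76675 bp from the start of this chromatin remodeller gene. In introns it was the one in Camta1, a calmodulin-binding transcription activator gene (6.46 and 12.8). In exons it was a site in an untranslated exon of Dand5 at chr8:84815641-84815840 (4.97 and 8.17), 6983 bp from its start; DAND5 is a secreted antagonist of the TGF-beta family. Near a noncoding start it was the first copy on chromosome 8 (12 and 21.7), 84 bp from Gm21769. The single-copy site at the start of Snhg7os, printed above, had 6.5 and 9.29. All 5 were higher in replicate 2.

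Sites at annotated starts that are not protein-coding in GENCODE formed the next group. A GENCODE start of a transcript of another type lay within 1000 bp of 173 sites (18.6%, interval 16.1 to 21.2), against 11.4% of the other peaks, and a RefSeq transcript start lay within 1000 bp of 180 (19.3%), against 10.2%. Together, either start was near 249 sites (26.7%), against 16.8%. Of these 249 sites 148 (59.4%) were CpG-rich, against 26.5% of the other peaks with a start. The 208 sites left after repeated sequence and tRNA genes comprised 91 with a start in both annotations, 65 in GENCODE alone and 52 in RefSeq alone, and 73 of the 208 overlapped the start itself. At 45 of them the GENCODE start belonged to a noncoding transcript of a coding gene.

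Long noncoding RNAs had the strongest of these sites. The site over the start of the lincRNA gene Gm15408 had 8.73 in replicate 1 and 14.2 in replicate 2. At Malat1, an abundant nuclear noncoding RNA of most cell types, a site 889 bp from the nearest noncoding start had 7.45 and 16.5, and a second one over a start had 4.69 and 6.56. At Chaserr (1810026B05Rik), a noncoding RNA known to act on its neighbour Chd2, a site had 6.23 and 14.2 and overlapped a curated RefSeq promoter element. Snhg15, a host gene of small nucleolar RNAs, had 6.16 and 10.2, and 2900052L18Rik near Bahcc1 had 6.46 and 18.7. In each of these sites replicate 2 was the higher. These RNAs were named after their values were seen, except Gm15408, and whether they were transcribed was not measured.

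Small RNA genes outside repeated sequence were near 10 of the 208 sites. Over all 932 sites, the nearest noncoding GENCODE start, where one lay within 1000 bp, was that of a microRNA gene at 0.536%, against 0.345% of the other peaks, and that of a small nuclear RNA gene at 0.322%, against 0.177%. The 10 sites included that of Rn7s2, a gene of the 7SL RNA of the signal recognition particle, with 6.55 in replicate 1 and 10.2 in replicate 2 over its start. Mir9-3, a gene of miR-9, a microRNA known for its part in neural development, had a site 264 bp from its start with 3.61 and 6.75. Mir210, a microRNA gene induced by low oxygen, had one 328 bp away with 3.28 and 6.55 that held a CTCF match. The U-type small nuclear RNA entries Gm25313, Gm23296 and Gm23856 had sites of 5.1 and 7, 3.77 and 8.24, and 3.53 and 5.91. These 6 were higher in replicate 2, whereas Mir7020 had 3.47 in replicate 1 and 3.11 in replicate 2.

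A RefSeq mRNA start was the nearest RefSeq start within 1000 bp at 32 sites (3.43%), against 789 of the other peaks (3.49%), so the shares were close. At 14 of the 208 sites such an mRNA start lay within 1000 bp and no GENCODE M21 start did, so these were distal by the annotation that the rule used. The sites at Slc43a2, an amino acid transporter gene (6.44 and 10.4), Prdm2, a histone methyltransferase gene (4.9 and 12.6), Kcnn1, a calcium-activated potassium channel gene (4.43 and 16.5), Kdm6b, a histone demethylase gene (3.48 and 7.16), and Cpeb4, a gene of an RNA-binding protein of translation (3.35 and 10.6), were among them. At Kcnn1, Prdm2, Kdm6b and Cpeb4 the site overlapped the RefSeq start. The 5 named sites were higher in replicate 2 and were named after their values were seen.

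Transfer RNA genes were near 31 sites (3.33%, interval 2.27 to 4.69), against 136 of the other shared distal peaks (0.602%, 0.505 to 0.712). Of the 386 tRNA genes RefSeq annotates on chromosomes 1 to 19, 31 (8.03%) had a selected site within 200 bp, 156 (40.4%) had any shared distal peak, 195 (50.5%) had a peak of replicate 1 and 245 (63.5%) a peak of replicate 2. The genes near the sites served 16 different amino acid acceptor types. The site overlapped the gene in 27 cases, with its midpoint a median of 23 bp before the gene's first base (range 96 bp before to 47 bp after), and 22 of the 27 held a B box. The B box is an element inside the tRNA gene, so its share at tRNA sites follows largely from how the class was defined. It stood in 22 of 31 of these sites (71%), against 5.29% of sites of other annotated starts. By itself it does not identify a tRNA gene, since it stood in 9.01% of all sites and in 10.8% of windows 2000 bp away.

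The strongest tRNA site, near n-TDgtc16 of aspartate, had 7.02 in replicate 1 and 14.5 in replicate 2 but lay beside the gene, over a RefSeq mRNA start of Tmpo, whereas a weaker site over the tRNA gene had 3.01 and 6.59. The site over n-TTcgt3, printed above, had 6.22 and 9.87, that over n-TScga3 had 5.65 and 6.71, and that over n-TLtaa3 had 5.2 and 8.52. Chromosome 11 held 9 of the 31 sites and chromosome 13 held 4. No share of all tRNA genes by chromosome stands beside these counts, so nothing is read from them. In 19 of the 31 every 50-base word was unique in the assembly, and the highest share of repeated words was 26.7%. Only 1 of the 31 held a CTCF match.

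CpG-rich sequence, defined over the 300 bp around the peak centre as a CpG observed to expected ratio of at least 0.6 and a GC content of at least 50%, was found in 284 sites (30.5%, interval 27.5 to 33.5), against 9.47% of the other peaks (9.1 to 9.86). Such sequence marks most promoters of broadly expressed mouse genes. Of these 284 sites, 136 (47.9%, 42 to 53.9) had no start in GENCODE or RefSeq within 1000 bp, against 53% of the CpG-rich other peaks. The 136 lay a median of 5850.5 bp from the nearest start of any kind, and 63 lay within 5000 bp of one. They comprised 84 intergenic sites, 28 in introns and 11 in exons of coding genes, and 26 held a CTCF match.

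The CpG-rich sites with no annotated start were led by CpG content by a site in an intron of C87436, with a ratio of 1.10 and values of 7.46 in replicate 1 and 15.4 in replicate 2. The site 38966 bp from Ptma, the gene of the chromatin protein prothymosin alpha, had a ratio of 1.08 and values of 6.12 and 14.5. Sites near Morn3 (3.54 and 14.8) and Gpr84 (5.1 and 10.4), at chr5:123057841-123058180 and chr15:103305341-103305580, lay in noncoding genes between exons. Sites near Olfr545 (3.12 and 4.16) and Cryba4 (3.32 and 4.25) were weaker. In all 6 replicate 2 was higher, by over 2-fold at C87436, Ptma, Morn3 and Gpr84, and none of the 6 held a CTCF match. Whether RNA starts at any of them was not measured.

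Motifs of factors known to bind promoters were more frequent in the sites than in the other peaks, also within CpG-rich sequence. The SP and KLF motif GGGGCGGGG stood in 5.9% of the sites and 2.18% of the other peaks, the ETS motif CCGGAAG in 5.26% and 1.72%, the NFY motif CCAATCA in 4.08% and 2.19%, the NRF1 motif GCGCATGC in 3% and 0.876%, and the CREB and ATF motif TGACGTCA in 1.82% and 0.438%. In windows 2000 bp from the sites these motifs stood in 1.29%, 0.751%, 2.2%, 0.644% and 0.268%. Within CpG-rich sequence alone the shares were 15.8% of the sites and 9.67% of the other peaks for SP and KLF, 10.9% and 5.79% for ETS, 7.75% and 3.6% for NFY, 8.45% and 3.27% for NRF1, and 4.93% and 1.77% for CREB and ATF. A match is a stretch of letters and not a bound factor.

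Motifs of factors that are often tied to cell-type enhancers showed no common direction in the peak intervals, which were wider at the sites. The E-box CAGATG, a motif of neural basic helix-loop-helix factors such as those of the Atoh1 and Neurod1 kind, stood in 14.2% of the sites and 17.4% of the other peaks. The homeodomain motif TAATTA stood in 1.07% and 1.94%, the MEF2 motif in 1.18% and 1.85%, the SOX motif ACAAAG in 11.3% and 11.9%, and the AP-1 motif TGANTCA in 4.08% and 3.94%. The TEAD motif GGAATG stood in 9.98% of the sites and 8.72% of the other peaks, the POU motif ATGCAAAT in 1.07% and 0.805%, and the NFI motif in 3 sites (0.322%) and 0.142% of the other peaks. The ZIC motif CAGCAGG, of the zinc finger factors that granule cells express, stood in 18.5% and 14.3%, and its letters overlap the CTCF consensus in part: its share was 27.9% of the sites in the CTCF class and 20.1% of the sites in none of the classes, which hold no CTCF match, against 13.7% of the other peaks with no start, CpG-rich sequence or CTCF match. The REST motif was found in 0 of 932 sites and in 0.115% of the other peaks. In windows of equal width, 300 bp around each peak centre, most of these motifs were less frequent at the sites. The shares were 20.3% against 27.2% for the E-box, 18.6% against 22.1% for SOX and 15% against 15.9% for TEAD. They were 7.51% against 7.74% for AP-1, 1.07% against 1.66% for POU, 2.47% against 5.37% for the homeodomain motif and 2.36% against 3.65% for MEF2. ZIC, at 21% against 19.3%, and NFI, at 0.322% against 0.177%, were higher.

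**Figure D5:**
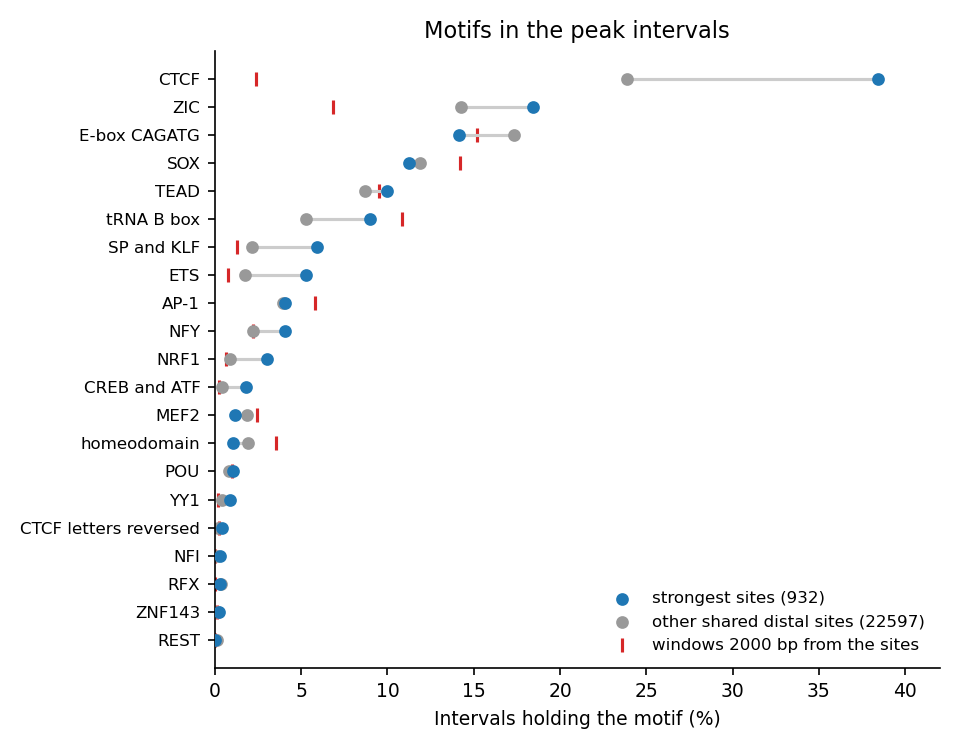
Share of intervals that hold each motif on either strand (x axis, percent) for the 932 sites (blue), the 22597 other shared distal peaks (grey) and windows of the same length 2000 bp from the sites (red ticks). CTCF at 38.4% stands apart from all other motifs.

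Repeated sequence was rare over all sites and common at the top. Sites whose 50-base words were mostly repeated made up 10 of the 932 (1.07%, interval 0.516 to 1.96), against 0.531% of the other peaks. Masked repeats covered at least 50% of 7 sites (0.751%, 0.302 to 1.54), against 3.02% of the other peaks. Second loci were found by BLAST for 30 sites: 11 of the 15 strongest and 19 of the other 917 (2.07%). This search and the families below covered the sites only, so how common such copies are among the other peaks is not known. The 15 strongest held a CTCF match in 2 cases, both on chromosome 8. Whether reads from several copies add up at these loci was not tested.

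The highest lower value belonged to chr17:39846781-39846900, with 36.6 in replicate 1 and 40.2 in replicate 2, in Rn18s-rs5, a RefSeq pseudogene related to the 18S ribosomal RNA that GENCODE annotates as ribosomal RNA, 58 bp from the GENCODE start of Gm42418. BLAST placed it at 3 loci of the assembly, its own included, and 100% of its 50-base words were repeated. Bases under the authors' FDR of 0.05 numbered 140 of the 2000 bp around it in each library, the fewest of all sites, against medians of 319 and 543.5. This site lies in that ribosomal gene, so its alignment to the gene was certain. It was the only 1 of the 932 sites to align, against 4 of the 22597 other peaks. To the mitochondrial genome 0 sites aligned, against 1 other peak.

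A family of 9 sites was linked by alignments of at least 50 bp at 90% identity or more, each placing a stretch of one site on another or within 200 bp of it. It held a site in an untranslated exon of Lars2 at chr9:123461921-123462080 (30.1 in replicate 1 and 29 in replicate 2), a site near Igf2bp3 (21.4 and 27.9), sites in introns of Kpna1 (18.7 and 29.3), Jarid2 (17.5 and 12.8), Zc3h7a (14.3 and 12) and Gphn (8.31 and 8.82), and sites near Hic2 (9.18 and 8.06), Cdh20 (5.87 and 6.94) and Myl12b (3.05 and 3.61). The Igf2bp3 site aligned to the Gphn locus at 99.4% identity over 168 bp and to the Lars2 locus at 98.8% over 168 bp, an alignment that reaches beyond the Lars2 site itself. Replicate 1 was the higher at Lars2, Jarid2, Zc3h7a and Hic2, and replicate 2 at the other 5. The Hic2 site aligned in part and was itself placed at 1 locus. Likeness to the large ribosomal RNA was not analysed here.

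Other copies made smaller groups. A site in an intron of Il31ra (17.2 in replicate 1 and 20 in replicate 2, placed at 7 loci) was linked to one at chr3:5860361-5860492 (8.33 and 10.9), which was placed at 15 loci, the most of all sites. The Zc3h7a site followed with 8. On chromosome 8, the pair printed above (12 and 21.7, and 11.3 and 21.6) and another site near 4930467E23Rik (5.68 and 11.8) were placed at 6 loci each, and the second of the pair overlapped the start of 2610005L07Rik. In all, 12 families held 34 sites, among them pairs at H2-Q1 and H2-D1, class I histocompatibility genes, and several of tRNA genes.

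The other 4 of the 15 strongest sites were placed at 1 locus. They were led by a site in an untranslated exon of Cers5, a ceramide synthase gene, at chr15:99735701-99736040, with 54.4 in replicate 1 and 29.6 in replicate 2, the highest value of replicate 1. A site in an untranslated exon of Ubqln1, a ubiquilin gene, at chr13:58177641-58177820 had 30.1 and 18.9. Both were higher in replicate 1, by log2 differences of -0.88 and -0.67, and neither held a CTCF match or a repeated 50-base word. The lowest log2 difference of all sites, -1.35, was also at an unclassed single site, chr10:126511601-126511820, with 16 and 6.31, chosen here after its values were seen. The other members of the 15 were an intergenic, CpG-rich site 789152 bp from Ddx18 (8.81 and 10.6) and the Gm15408 start. Copies in the CAST genome were not analysed here, and no list of known artefact regions was used.

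The 264 sites in none of the classes resembled the CTCF class in base content: their median GC content was 53.7% and their median CpG ratio 0.359, against 53.3% and 0.338 in the CTCF class. A looser consensus, in which any base may replace the A of CCA, was met by 57 of them (21.6%), against 9.31% of the other peaks with neither a start, CpG-rich sequence nor a CTCF match. The AP-1 motif stood in 6.82% of them, against 4.28% of those peaks, and the E-box CAGATG in 15.5% against 18.2%.

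By place, 53.5% of the sites were intergenic, 30.6% in introns, 5.47% between exons of noncoding genes, 4.4% in noncoding exons, 3.43% in untranslated exons and 2.58% in coding exons. The other shared distal peaks had 44.9%, 40%, 6.16%, 2.5%, 2.5% and 3.86%, so the sites were more often intergenic and less often intronic. The median distance to a coding start was 16735 bp, against 25869 bp, and 8.05% of the sites lay over 100000 bp away, against 18.6%. The bases under an FDR of 0.05 in 2000 bp had medians of 319 in replicate 1 and 543.5 in replicate 2, against 224 and 331 at the other peaks; this measure comes from the same cuts as the signal that chose the sites, and nothing is read from the difference. Among the classes it was highest at tRNA genes, with medians of 683 and 1251, and lowest at CTCF matches without a start, with 289 and 419.

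The share of shared distal peaks that passed the threshold differed between chromosomes. Chromosome 11 held 99 sites, 5.48% of its shared distal peaks, and chromosome 14 held 25, 2.46% of its own. Another site lay within 10000 bp of 69 sites (7.4%) and within 100000 bp of 252 (27%). No matching share was computed for the other peaks, so nothing is read about clustering.

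The 932 sites had 854 nearest coding genes, 790 of them nearest to a single site. All 23529 shared distal peaks had 9473 nearest genes. A small set shares its nearest genes less often by its size alone, so nothing is read from these counts. Ptma had 6 sites between chr1:86487461 and chr1:86532640, of 8 shared distal peaks nearest to it, with values of 3.06 to 6.12 in replicate 1, and 4 of the 6 were CpG-rich and 3 held a CTCF match. Sept9, a septin gene, had 4 sites of 12 shared distal peaks, 3 of the 4 with a CTCF match. Chd2 had 3 sites of 8 shared distal peaks, all 3 CpG-rich. Camta1 (of 18), Ier5 (of 8), Klrb1c (of 9), Tmpo (of 15), Ubash3b (of 25), Zbtb20 (of 9) and Zfp516 (of 19) had 3 each. At Zbtb20, a gene of a transcription factor of the developing brain, the sites had 4.21 and 10.3, 3.8 and 10.3, and 3.35 and 5.85, the first 2 over one peak of replicate 2, and the first overlapped a RefSeq mRNA start of Zbtb20. Nearness on the chromosome does not show which gene a site acts on.

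Genes of cerebellar cell types were the nearest gene of few sites. Markers of granule cell progenitors and of the hedgehog response, 11 genes, were nearest to 2 sites (0.215%), against 0.23% of the other peaks. The site in an intron of Ccnd1, the cyclin gene of dividing progenitors, had 3.4 in replicate 1 and 4 in replicate 2, and that in an intron of Ptch1, the hedgehog receptor gene, had 3.1 and 4.53. Markers of postmitotic granule neurons, 9 genes, were nearest to 3 sites (0.322%, against 0.243%), which were at Nfix (5.94 and 8.89), Nfib (3.26 and 5.2) and Rbfox3 (3.06 and 4.74), and all 3 held a CTCF match. Purkinje cell markers, 11 genes, were nearest to 2 sites (0.215%, against 0.15%), in an untranslated exon of Lhx5 (3.77 and 4.3) and near Ebf1 (3.01 and 4.82). Markers of GABAergic interneurons, glia, blood and vessels, and housekeeping genes were nearest to 0 sites, against 10, 38, 6 and 4 of the other peaks.

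Enhancers of the VISTA collection, as curated in RefSeq, were overlapped by 9 sites (0.966%, interval 0.442 to 1.83), against 0.77% of the other peaks (0.66 to 0.893). These elements were assayed in transgenic mouse embryos. They included mm412 near Skap2, active in the neural tube (4.88 in replicate 1 and 10.9 in replicate 2), mm1295 near Irf2bp2 (4.84 and 14) and mm1548 near Bhlhe41 (3.99 and 9.82), active in the forebrain, and mm123 near Atoh8, active in the neural tube, limb, nose and heart (4.62 and 6.94). Elements mm641 and mm1406, near A1bg and Rpl14, were active in the midbrain (3.82 and 6.27, and 3.4 and 3.61). None of the 9 is recorded as active in the cerebellum. Because the assays were made in embryos, nothing is read from this about the cerebellum at 4 days.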

How the data were processed

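For each library the authors deposited, per the labels, peaks, footprints and FDR cut rates on mm10, while the aligner, the peak caller and the footprint caller, with versions, are not stated in the sources used. The deposited peak signal (column 7 of the larger peak file) is a depth-normalised value whose factor is not given, so the depth in reads is unknown. The footprint p-value column of the deposited files holds 0.01 on every line, so positions alone were used, and the deposited FDR (a q-value) was read as bases under 0.05. Peaks were matched by at least 1 bp of overlap, starts came from GENCODE M21 and RefSeq on GRCm38, and sequence, tRNA genes and curated elements came from RefSeq. Distances run from peak edge to start. Motifs were searched on both strands, repeated words of 50 bases were counted over the assembly, and near-copies came from BLAST 2.17.0 with an E-value of 1e-05. Python 3.11.15, pandas 2.3.3, pysam 0.24.0 and samtools 1.23.1 were used. The motif search, word counts and overlaps were tested on simulated data. No hypothesis test was run, because there are 2 libraries of 1 group, and exact binomial intervals come from scipy 1.17.1.

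The sites, lists and definitions were chosen with earlier results of these data known. The sites named are the 15 with the highest lower value, 3 just inside and 3 just outside the threshold, 6 CpG-rich sites without a start, 5 with most near-copies, the strongest footprinted CTCF site of each of 4 places and the strongest site of each gene list. Others were named after their values were seen. All alternatives in the closing section were run as planned, except the one without repeated sequence, which was added after seeing the data.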

Additional observations from a re-analysis of the deposited data

How the results depend on the processing

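No paired analysis was possible because the 2 libraries form 1 group. Of 65 recomputed values, 44 stayed within the interval, spread or 1.5-fold range of the value reported and 21 moved. For the median log2 difference the range was the SD over sites (0.47), a spread of sites and not an error of the median. Its value of 1.00 with equal numbers of peaks, against 0.54, was therefore counted as unmoved. The stricter deposited peak list gave 931 sites and a reciprocal overlap of 50% gave 916, and neither moved a share. With a threshold of 2 there were 3125 sites, and the share with mostly repeated 50-base words was 0.416% and the noncoding start share 14.8%. With a threshold of 5 there were 108 sites, the CTCF share was 24.1% (24.4% below that threshold), the repeated-word share 7.41%, the noncoding start share 28.7% and the share of CpG-rich sites without a start 39.7%. With equal numbers of the strongest peaks of each library (4528 each, from 3.01 in replicate 1 and 6.27 in replicate 2) there were 351 sites, all among the 932, with 24.8%, 2.28%, 27.6% and 41.9% for the same shares. A looser consensus, in which any base may replace the A of CCA, gave a CTCF share of 51.6%. A stricter one, with a G in the third free position and a final A, gave 11.8%, with 99.1% of its matches in footprints. Leaving out 1 library in turn gave 994 to 4200 sites, CTCF shares of 33.9% to 37.8%, footprinted shares of 96% to 97.3%, masked-repeat shares of 0.905% to 1.81%, repeated-word shares of 0.333% to 1.81%, noncoding start shares of 15.8% to 18.1%, and CpG-rich shares without a start of 47.9% to 49.2%. The cause of these shifts was not tested. Without the 30 sites of repeated sequence the CTCF share was 38.9%. The median log2 difference ran from 0.53 to 1.00, the highest with equal numbers of peaks, where the cut-offs themselves were 3.01 and 6.27. Every setting that gave this median chose its sites on the values of both libraries. Its sign was therefore not checked independently of the choice.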

Other observations

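Chromosome X lies outside the rule, but 8 of its 543 shared distal peaks (1.47%) reached 3 in both libraries. The strongest, near Pak3 at chrX:143482981-143483120, had 27.9 in replicate 1 and 26.9 in replicate 2 and only 3 of the 932 sites had a higher lower value. Of the other 7, 4 were nearest to Gm21887 and 1 to Mid1, within 30000 bp of one another at the end of the chromosome, with 3.37 to 10.03 in replicate 1 and 4.14 to 21.2 in replicate 2.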
